A study of Drosophila melanogaster with 3 samples.

Results

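The aminoacyl-tRNA synthetase genes of Drosophila melanogaster were examined for binding of the protein encoded by cropped (crp), the fly member of the AP-4 family of basic helix-loop-helix proteins. Members were the protein-coding genes of the Ensembl annotation of the dm6 assembly whose symbol is an amino acid code, or GluPro, followed by RS, with or without the ending -m or the prefix alpha or beta. The rule used symbols alone, no measured value, and it found 35 of 13968 protein-coding genes. Of these, 15 carried the ending -m and are called mitochondrial here, and the other 20 are called cytosolic. The study had 3 samples, labelled as biological replicates of 1 group: whole embryos of both sexes, 0 to 24 h old, from a single transgenic line in which crp carries GFP at its C terminus. Chromatin was sonicated to 200 to 800 bp and precipitated with an antibody to GFP. There is no untagged, mutant or treated group, so the comparisons below are among genes and among replicates, with the control library not analysed here. The sources used here do not give whether the tagged crp was an extra copy or which promoter drove it. The embryos mix all stages and tissues, so binding in few cells and weak binding in many cells cannot be told apart.

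Aminoacyl-tRNA synthetases join each amino acid to its tRNA and so supply the ribosome with charged tRNAs. Cytosolic and mitochondrial protein synthesis use separate sets, and both sets are encoded in the nucleus. The enzymes belong to a pair of unrelated folds, class I and class II, and the fold goes with the amino acid. In flies GluProRS is a fused enzyme with one domain of each class and is counted apart. Cytosolic PheRS is built from an alpha and a beta subunit with separate genes, whereas PheRS-m is a single chain. A gene without the ending -m may also serve mitochondria, as the single human gene for the glycine enzyme does. GlyRS, HisRS, LysRS and ThrRS have no counterpart with that ending, so the set called cytosolic may include genes of both compartments. Compartment contrasts without these genes are given at the end. AP-4 proteins bind the palindromic E-box CAGCTG as dimers.

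The DNA at selected synthetase peaks is shown first, because peaks with and without an E-box beside the summit, the position of highest enrichment, differed in strength. The 30-base windows below hold the CAGCTG nearest to the summit at 8 promoters, in capitals, each read 5′ to 3′ on the strand of the synthetase gene. These are not the 8 strongest: TyrRS, TyrRS-m, CysRS and MetRS had stronger peaks than MetRS-m and TrpRS-m. At SerRS the site lay 108.5 bp from the summit. They lay at chr3L:4825851-4825880 for LeuRS-m, chr3R:7887054-7887083 for ArgRS-m, chr3L:5146114-5146143 for AlaRS-m, chr3R:9267019-9267048 for TrpRS, chr2L:3037515-3037544 for SerRS, chr3L:22288574-22288603 for IleRS, chr3R:14259979-14260008 for MetRS-m and chr3L:17849688-17849717 for TrpRS-m, all on dm6, with bases taken from RefSeq's copy of that build.
LeuRS-m: gatgcagagaaaCAGCTGttcgattgtaga
ArgRS-m: gtgatgtcaaaaCAGCTGatgtgcagcgat
AlaRS-m: aagccatgtgatCAGCTGttcgggcctgag
TrpRS: tttgcagcgcaaCAGCTGattttccagagt
SerRS: gactattttgaaCAGCTGctaaaagcaagt
IleRS: cagtgctgtcgtCAGCTGattatcaaggat
MetRS-m: gcactggtggcaCAGCTGttcaatgttata
TrpRS-m: tatcactgttcaCAGCTGtcgtaccggctt

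Longer stretches show the DNA around some of the summits. They cover the DNA outside annotated exons around 3 strong summits, at chr3L:4825688-4825852 between the starts of LeuRS-m and Dhc64C, chr3R:9266905-9267018 between TrpRS and Vps16A and chr3L:22288485-22288664 before IleRS. IleRS-m, at chr3L:16100125-16100279, is the strongest member with no CAGCTG nearby, and LeuRS, at chr2L:3514657-3514871, is among the weakest bound. Capitals mark CAGCTG and TATCGATA, the DNA replication-related element bound by Dref. In IleRS an E-box and a TATCGATA flanked the summit. The LeuRS-m and TrpRS stretches hold no CAGCTG. Their nearest E-boxes lay just beyond the stretch, just inside LeuRS-m and just inside Vps16A.
LeuRS-m: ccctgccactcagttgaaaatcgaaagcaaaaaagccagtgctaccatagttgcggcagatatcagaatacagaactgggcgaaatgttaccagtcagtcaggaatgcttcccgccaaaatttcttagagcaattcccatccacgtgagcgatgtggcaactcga
TrpRS: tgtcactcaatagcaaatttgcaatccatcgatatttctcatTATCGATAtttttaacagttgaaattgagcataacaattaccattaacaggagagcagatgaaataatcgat
IleRS: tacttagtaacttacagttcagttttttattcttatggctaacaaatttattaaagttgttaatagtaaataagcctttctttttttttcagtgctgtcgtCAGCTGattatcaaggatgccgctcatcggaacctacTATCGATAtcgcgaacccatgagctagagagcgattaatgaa
IleRS-m: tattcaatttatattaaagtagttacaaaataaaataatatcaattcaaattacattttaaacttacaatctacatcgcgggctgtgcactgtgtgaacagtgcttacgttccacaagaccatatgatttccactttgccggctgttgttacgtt
LeuRS: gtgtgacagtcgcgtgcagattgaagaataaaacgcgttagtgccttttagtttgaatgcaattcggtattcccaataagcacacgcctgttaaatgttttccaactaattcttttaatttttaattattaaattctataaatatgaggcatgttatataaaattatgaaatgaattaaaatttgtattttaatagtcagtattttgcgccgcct

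A last pair comes from promoters with no reproducible peak. They are beta-PheRS, at chr3R:24252680-24252804, and SerRS-m, at chr3R:15340542-15340666. Neither stretch holds CAGCTG. The capitals in beta-PheRS mark AGTGTGACC, the reverse complement of GGTCACACT, a core promoter motif known as motif 1 and bound by M1BP.
beta-PheRS: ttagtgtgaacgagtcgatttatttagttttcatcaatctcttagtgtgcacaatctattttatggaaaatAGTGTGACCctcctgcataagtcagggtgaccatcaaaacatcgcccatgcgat
SerRS-m: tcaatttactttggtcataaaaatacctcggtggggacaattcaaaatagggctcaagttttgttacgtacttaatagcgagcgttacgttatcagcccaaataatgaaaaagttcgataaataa

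The data were peak lists. For each replicate the authors deposited a relaxed list of 30000, 28713 and 30000 peaks, and for the 3 replicates together a relaxed pooled list of 28145 peaks and a shorter list of 5460 reproducible peaks, selected by their irreproducible discovery rate (IDR), which compares peak ranks across replicates. A gene was counted as bound where an IDR summit lay within 500 bp of one of its start sites. Peak strength in a replicate is given as relative signal, the authors' signal value of a peak divided by the median of the 5460 strongest peaks of the same replicate (its strongest list), so that 1 is the median of that list. The depth behind the lists is unknown, so no counting error could be given, and errors are the SD over the 3 replicates.

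An IDR summit lay at 31 of the 35 synthetase genes (88.6%), beside 33.3% of all protein-coding genes. Among cytosolic genes 19 of 20 were bound (95%), and the exception was beta-PheRS. Among mitochondrial genes 12 of 15 were bound (80%), and AsnRS-m, AspRS-m and SerRS-m were not. Of the 31 bound genes, 15 had a summit among the 1000 strongest of the IDR list (48.4%), beside 30.7% of all bound genes, and their median rank was 1034 beside 1964 for all bound genes. In the relaxed pooled list 33 of the 35 genes had a promoter summit (94.3%), beside 57.2% of all genes. The counts held in each replicate's own strongest list: 28, 30 and 31 of the 35 genes had a summit there, beside 30.3%, 31.7% and 32.1% of all genes.

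**Figure D1:**
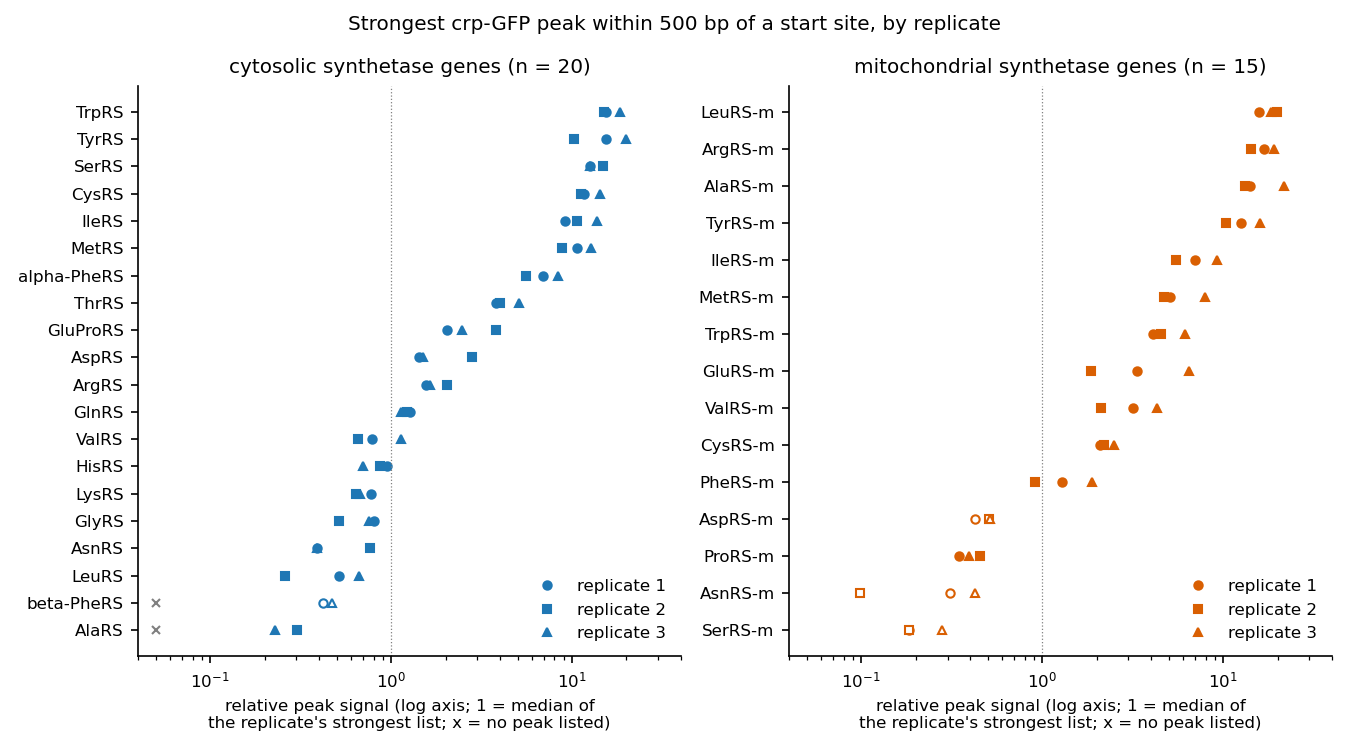
Relative signal (log axis, no unit) of the strongest peak within 500 bp of a start site of each gene, 1 point per replicate, for 20 cytosolic and 15 mitochondrial synthetase genes. Filled points are bound genes, open points are the 4 genes with no IDR summit, and crosses are replicates with no listed peak. Both sets run from below 1 to above 10.

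Taken over all members, compartment did not separate the genes beyond the spread between replicates. Within each enzyme class the cytosolic median was the higher in all 3 replicates, but in class I this rests on which gene is in the middle, as given with the classes. Cytosolic genes had a summit in the strongest list in 85%, 85% and 90% of cases (86.7% ± 2.89, SD, n = 3), and mitochondrial genes in 73.3%, 86.7% and 86.7% (82.2% ± 7.70). The cytosolic share was higher in replicates 1 and 3 and lower in replicate 2. The difference averaged 4.44 ± 6.74 percentage points (exact two-sided sign-flip permutation test over 3 replicates, p = 0.5, where the smallest possible p is 0.25). It turned to -3.33 points with the full relaxed lists (p = 0.5 in the same exact test). Without members that share their summit with another gene's start it was -19.4 points (p = 0.25 in the same exact test). That filter took out bound genes only, 16 of the 20 cytosolic and 6 of the 15 mitochondrial genes, and kept every unbound gene. No conclusion about compartment is drawn from it. Median relative signal at the promoter, with genes lacking a peak ranked lowest, was 1.49, 2.41 and 1.57 in cytosolic genes (1.83 ± 0.509). In mitochondrial genes it was 3.33, 2.20 and 6.16 (3.90 ± 2.04), and over all bound genes 1.31 ± 0.148. The log2 ratio of the cytosolic to the mitochondrial median was -1.15, 0.13 and -1.97, with a mean of -0.997 ± 1.06 (exact two-sided sign-flip permutation test, p = 0.5). Without members that share their summit, and with the full relaxed lists, it was -2.26 (p = 0.25 in the same exact test). This value rests on the few cytosolic genes that the filter leaves. Ribosomal protein genes, the other large set needed for translation in both compartments, were bound in 72 of 92 cases for the cytosolic ribosome (78.3%) and 61 of 73 for the mitochondrial ribosome (83.6%). Their median relative signal was 0.765 ± 0.186 and 4.90 ± 0.817.

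**Figure D2:**
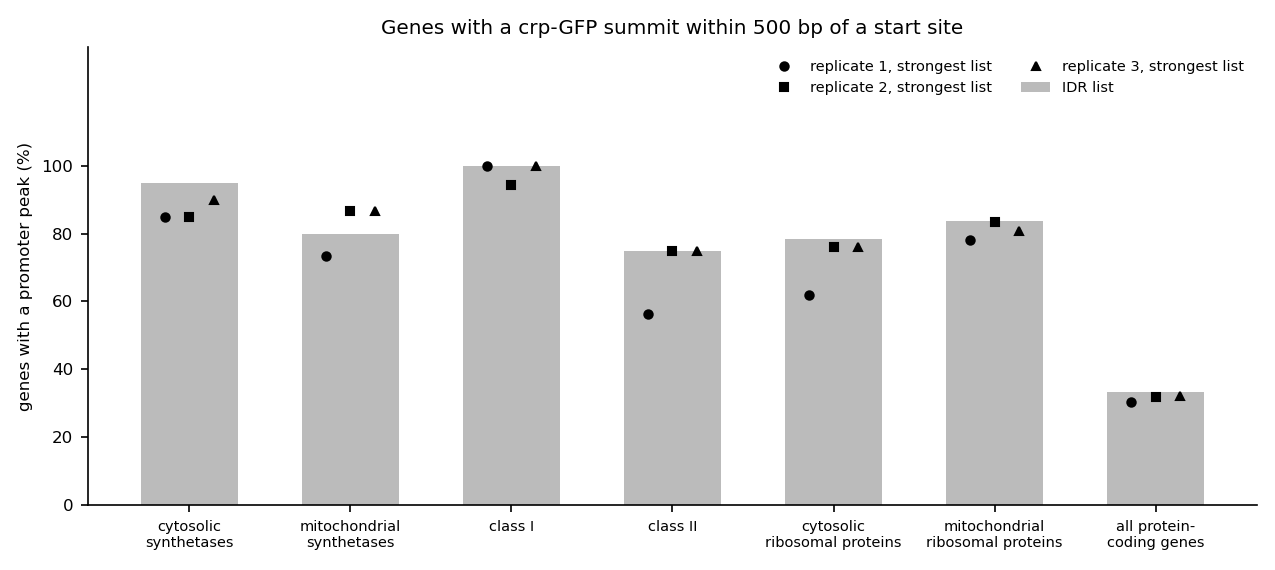
Share of genes (%) with a crp-GFP summit within 500 bp of a start site. Bars are the IDR list and points the strongest list of each replicate, for both compartments and both classes of synthetase, for the ribosomal protein genes and for all protein-coding genes. Every synthetase set lies above the 33.3% of all genes.

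Strength went with the class of the enzyme, a grouping chosen with earlier results of these data known and so given with no test between the classes. All 18 class I genes were bound, and 11 were among the 1000 strongest summits. Of the 16 class II genes 12 were bound and 4 were among the 1000 strongest, and all 4 unbound synthetase genes were class II. Median relative signal was 6.04, 5.12 and 8.62 in class I (6.59 ± 1.81) and 0.790, 0.701 and 0.690 in class II (0.727 ± 0.0549), so the classes did not overlap in any replicate's median. The order held in both compartments. Cytosolic class I stood at 10.2 ± 2.11 (n = 9 genes) and cytosolic class II at 0.806 ± 0.0736 (n = 10 genes), while mitochondrial class I stood at 5.91 ± 1.76 (n = 9 genes) and mitochondrial class II at 0.446 ± 0.0527 (n = 6 genes). Within each class the cytosolic median was thus the higher in all 3 replicates, opposite in sign to the ratio over all members. In cytosolic class I, however, the genes fell into a high and a low group, and the median was the lowest value of the high group. That value was 9.20, 8.85 and 12.7, with the next gene, ArgRS, at 1.57, 2.04 and 1.64. The order of the class I medians thus rests on which gene is in the middle. The log2 ratio of cytosolic to mitochondrial was 0.86, 0.91 and 0.68 in class I (0.81 ± 0.12) and 1.19, 0.76 and 0.63 in class II (0.86 ± 0.29). Each had an exact two-sided sign-flip permutation p of 0.25, the smallest that 3 replicates allow. This split was chosen after seeing the data and the replicates hold the same genes, so no conclusion about compartment is drawn from that p. Cytosolic members held 9 class I and 10 class II genes, and mitochondrial members 9 and 6. Single genes crossed the order, with class II SerRS and AlaRS-m among the strongest and class I LeuRS among the weakest. An E-box within 100 bp of the summit was also commoner in bound class I genes, at 13 of 18 (72.2%), than in bound class II genes, at 3 of 12 (25%); its part in the class difference was not tested.

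Among cytosolic class I genes, TrpRS (FBgn0010803, chr3R:9265027-9266904), which charges tRNA with tryptophan, had the strongest peak. Its relative signal was 15.5, 15.0 and 18.5 (16.3 ± 1.87), with the summit 75 bp upstream of its start and rank 112 of the 5460 IDR peaks. TyrRS (FBgn0027080, chr3L:16417349-16419302), the tyrosine enzyme, reached 15.4, 10.2 and 19.8 (15.2 ± 4.81), with its summit 110 bp upstream, and its SD was the highest of any member. CysRS (FBgn0027091, chr2R:16143147-16145906), the cysteine enzyme, stood at 11.7, 11.3 and 14.3 (12.4 ± 1.64), 24 bp upstream. These 3 genes lay above 10 in every replicate. IleRS (FBgn0027086, chr3L:22288665-22292810) stood at 9.20, 10.7 and 13.7 (11.2 ± 2.29), and MetRS (FBgn0034401, chr2R:18846858-18850599) at 10.6, 8.85 and 12.7 (10.7 ± 1.91). They charge tRNA with isoleucine and methionine. The other 4 were far lower. ArgRS had 1.57, 2.04 and 1.64 (1.75 ± 0.256), with the summit 177 bp upstream. GlnRS had 1.28, 1.23 and 1.14 (1.22 ± 0.0706), 44 bp upstream, and LeuRS had 0.516, 0.260 and 0.661 (0.479 ± 0.203), 119 bp upstream. With ValRS at 0.857 ± 0.249, no replicate of these 4 exceeded the 2.04 of ArgRS in replicate 2.

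Cytosolic class II genes were mostly weak, with exceptions. SerRS (FBgn0031497, chr2L:3035493-3037403), the serine enzyme, had 12.5, 14.8 and 12.6 (13.3 ± 1.31), with rank 208 and the summit 18 bp upstream. The gene alpha-PheRS (FBgn0030007, chrX:8143904-8145602), one subunit of the cytosolic phenylalanine enzyme, had 6.89, 5.55 and 8.38 (6.94 ± 1.41). Its partner subunit gene beta-PheRS (FBgn0039175, chr3R:24250460-24252679) had no IDR summit and no summit in the relaxed pooled list. The subunit genes thus stood far apart, with beta-PheRS at 0.419 in replicate 1, no listed peak in replicate 2 and 0.472 in replicate 3. ThrRS, the threonine enzyme, followed at 3.81, 4.02 and 5.12 (4.32 ± 0.703), with the summit farthest from its start among bound members, 376 bp upstream.

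The remaining cytosolic class II genes were near or below the median of the strongest lists. AspRS, the aspartate enzyme, had 1.18, 2.79 and 1.39 at its strongest IDR summit (1.78 ± 0.873), and only replicate 2 exceeded 2. Both IDR summits of AspRS lay at an annotated start 3280 bp downstream of its first one, and AspRS was the one bound member that lost its call when only first starts were used. HisRS, the histidine enzyme, had 0.944, 0.867 and 0.702 (0.838 ± 0.124), and LysRS, the lysine enzyme, had 0.772, 0.642 and 0.677 (0.697 ± 0.0675). GlyRS, the glycine enzyme, had 0.808, 0.518 and 0.756 (0.694 ± 0.155). These 3 genes stayed below 1 in every replicate. AsnRS, the asparagine enzyme, had 0.391, 0.761 and 0.383 (0.512 ± 0.216). AlaRS was the weakest bound cytosolic gene, with no peak in replicate 1, 0.303 in replicate 2 and 0.230 in replicate 3. GluProRS had 4 IDR summits, 2 at its first start and 2 at a second annotated start inside the gene, and its strongest peak stood at 2.04, 3.81 and 2.46. In replicate 1 no peak lay within 100 bp of its strongest IDR summit, so 2.04 belongs to another peak near its starts.

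Among mitochondrial class I genes, LeuRS-m (FBgn0027085, chr3L:4825853-4829038), which charges the mitochondrial leucine tRNAs, had the highest-ranked peak of all 35 genes, at rank 70. Its relative signal was 15.8, 19.9 and 18.5 (18.0 ± 2.08), with the summit 64 bp upstream. ArgRS-m (FBgn0037526, chr3R:7887045-7890150) had 16.8, 14.3 and 19.2 (16.8 ± 2.44), with the summit 2 bp inside the gene, and TyrRS-m (FBgn0035064, chr2R:24781726-24783500) had 12.5, 10.3 and 16.1 (12.98 ± 2.90). Every replicate of these 3 genes lay above 10. IleRS-m (FBgn0036569, chr3L:16100280-16103482) had 6.998, 5.52 and 9.31 (7.27 ± 1.91), with the summit 30 bp upstream, and MetRS-m (FBgn0027083, chr3R:14249043-14259991) had 5.08, 4.73 and 7.93 (5.91 ± 1.76), 9 bp upstream. TrpRS-m stood at 4.93 ± 1.09, GluRS-m at 3.87 ± 2.34 and ValRS-m at 3.20 ± 1.11. CysRS-m had 2.08, 2.20 and 2.49 (2.26 ± 0.211), with the summit 134 bp upstream. All 9 were thus above 1 in every replicate, which held for 7 of the 9 cytosolic class I genes. The GluRS-m summit lay 74 bp after the start, the farthest downstream of a nearest annotated start among bound members. GluRS-m and TyrRS are neighbours on the same strand of chr3L, and each had a peak of its own.

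Mitochondrial class II held one strong gene. AlaRS-m (FBgn0028962, chr3L:5146098-5149852), the mitochondrial alanine enzyme, had 14.1, 13.2 and 21.7 (16.3 ± 4.65), at rank 107, with the summit 13 bp upstream. PheRS-m followed at 1.36 ± 0.497 and ProRS-m, at 0.347, 0.453 and 0.396 (0.399 ± 0.0530), was the lowest-ranked bound member, at 5262 of 5460. The other 3 had no IDR summit within 500 bp. AspRS-m came closest: the pooled list held a summit 4 bp from its start with a signal of 147, beside the lowest IDR signal of 167. The gene had a peak in the strongest list of replicates 2 and 3. Its strongest peak lay at the pooled summit in replicate 2, but 10 bp from a second annotated start in replicate 3. AsnRS-m was in the strongest list of replicate 3 only, and its summits lay 180, 384 and 25 bp from the start in the 3 replicates. SerRS-m was in no strongest list, with a pooled signal of 51.4 at 217 bp and 0.184, 0.185 and 0.279 in the replicates. With beta-PheRS, these 4 genes had a weak peak in at least 2 of the 3 relaxed replicate lists, and none exceeded 0.518.

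Setting the cytosolic and the mitochondrial gene of one amino acid side by side gave 14 pairs for 13 amino acids, since PheRS-m pairs with both cytosolic subunits. The cytosolic gene had the higher value in all 3 replicates in 7 pairs and the mitochondrial gene in 5, and 2 pairs were mixed. The widest gaps ran in opposite directions. SerRS was 62.6-fold above SerRS-m (log2 5.97 ± 0.43), whereas LeuRS-m was 40.2-fold above LeuRS (log2 of LeuRS over LeuRS-m -5.33 ± 0.80). The SerRS-m peaks were in no strongest list and lay 178, 366 and 286 bp from its start in the 3 replicates. The 62.6-fold gap thus compares SerRS with weak peaks at different places. ArgRS-m was 9.59-fold above ArgRS and ValRS-m 3.68-fold above ValRS. AlaRS-m was above AlaRS in every replicate, with no fold because AlaRS has no peak in replicate 1. CysRS was 5.48-fold above CysRS-m, alpha-PheRS 5.26-fold above PheRS-m, AspRS 3.78-fold above AspRS-m and TrpRS 3.35-fold above TrpRS-m. MetRS and IleRS exceeded their mitochondrial counterparts by 1.84-fold and 1.55-fold. The tyrosine pair was the closest: both genes were strong, and TyrRS was 1.15-fold above TyrRS-m on average with replicate 2 in the opposite order. With 3 replicates no single pair can reach an exact sign-flip p under 0.25.

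**Figure D3:**
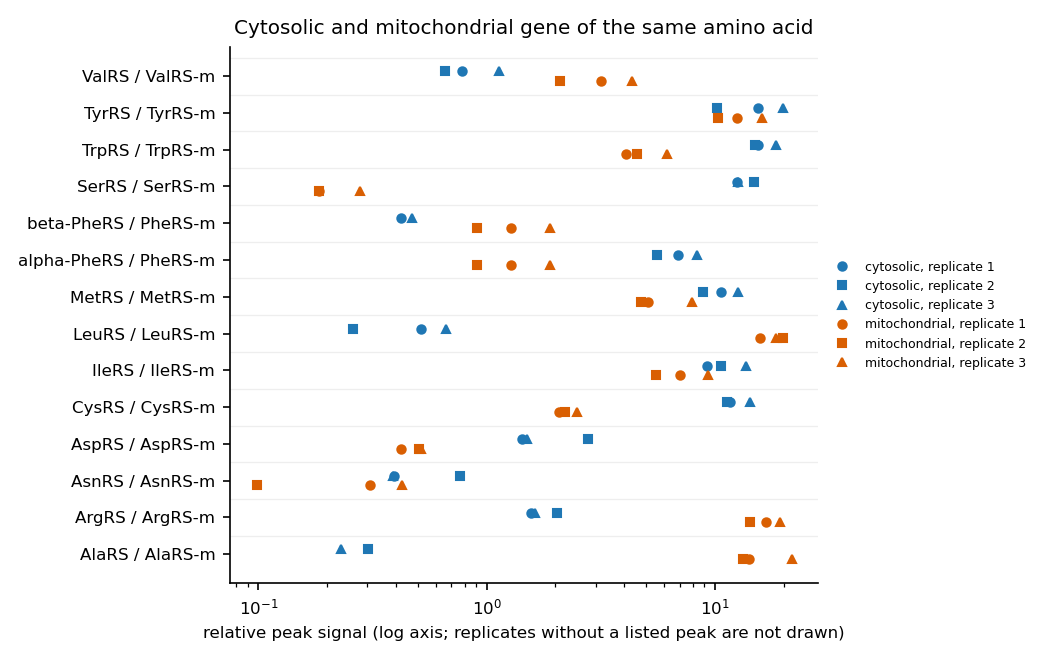
Relative signal (log axis, no unit) of the strongest promoter peak for the cytosolic and the mitochondrial gene of each amino acid, 1 point per replicate. The cytosolic points lie to the right in all replicates in 7 of 14 pairs and the mitochondrial points in 5.

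In the closest window the AP-4 E-box was about as common at synthetase summits as at other bound promoters. CAGCTG, searched on both strands, which are the same for a palindrome, lay within 50 bp of the strongest summit in 10 of 31 bound members (32.3%), beside 31.4% of all bound genes. The 10 were CysRS, IleRS, MetRS and ThrRS among cytosolic genes, and AlaRS-m, ArgRS-m, MetRS-m, TrpRS-m, TyrRS-m and ValRS-m among mitochondrial genes. Within 100 bp it lay at 17 of 31 (54.8%), beside 42.7%. The site lay 6.5 bp from the summit at MetRS-m, 11.5 bp at TrpRS-m, 19.5 bp at CysRS, 20.5 bp at TyrRS-m, 21.5 bp at both IleRS and ArgRS-m, 43.5 bp at AlaRS-m and 47.5 bp at MetRS. Several strong peaks had their nearest site outside the closer window: 54.5 bp away at TrpRS, 76.5 bp at LeuRS-m, 108.5 bp at SerRS and 120.5 bp at alpha-PheRS, measured from the summit to the centre of the site. AlaRS-m had 3 sites within 100 bp of its summit, and TyrRS-m had 2.

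Peaks with a site were the stronger ones, among synthetase genes as among all bound genes. The 17 members with CAGCTG within 100 bp had a median relative signal of 9.20, 8.85 and 12.7 (10.2 ± 2.11), and 12 of them were among the 1000 strongest. The 14 without had 0.994, 0.835 and 1.14 (0.989 ± 0.151), and 3 of them were among the 1000 strongest. Over all bound genes the values were 5.68 ± 1.18 for 1989 genes with a site and 0.768 ± 0.159 for 2668 without, so the same order was seen across bound genes. The 3 of the 1000 strongest without a site in that window were SerRS, alpha-PheRS and IleRS-m, and for IleRS-m the nearest CAGCTG was 661.5 bp away. In the other direction HisRS had a site at 67.5 bp and stood at 0.838, and ArgRS had one at 72.5 bp and stood at 1.75.

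**Figure D4:**
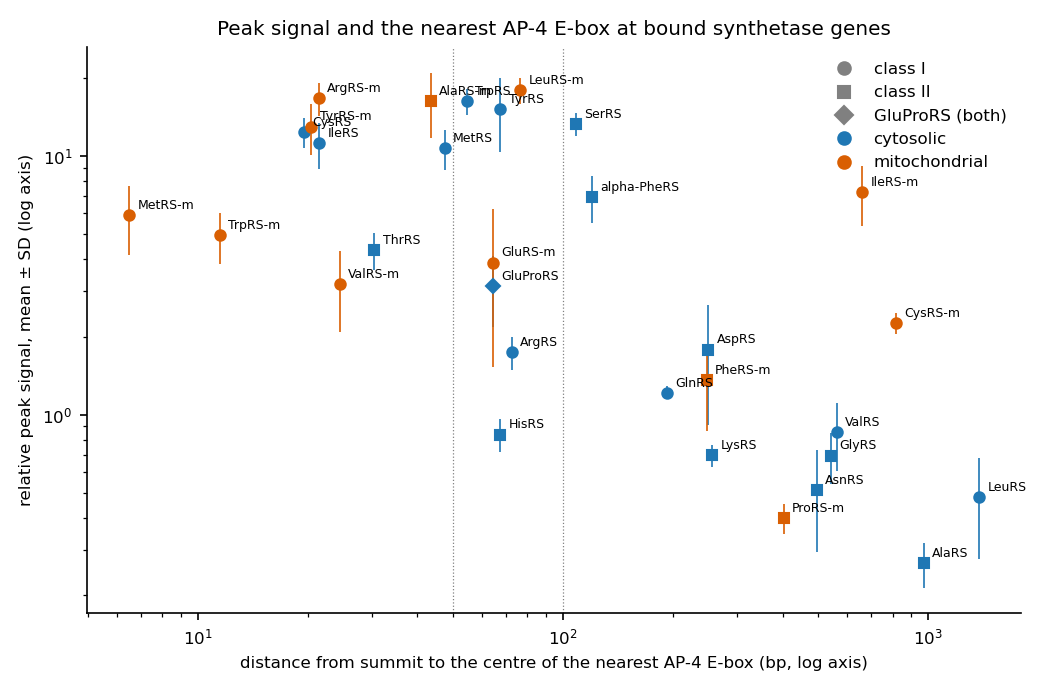
Mean relative signal (log axis, bars ± SD over replicates) of each of the 31 bound synthetase genes against the distance from its summit to the centre of the nearest CAGCTG (bp, log axis). Colour gives the compartment and marker shape the class, and dotted lines mark 50 and 100 bp. IleRS-m, 661.5 bp from a site, stands at 7.27.

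Other promoter motifs were searched on both strands from 250 bp before to 50 bp after the first start of each gene. CAGCTG was present in 17 of 35 synthetase promoters (48.6%), beside 17.6% of all promoters and 34.2% of promoters of bound genes, and in none of the 4 unbound members. TATCGATA was present in 5 (AlaRS, ArgRS, IleRS, PheRS-m and TrpRS), or 14.3% beside 9.36% of all promoters and 17% of promoters of bound genes. Its shorter core CGATA, which every TATCGATA also holds, was present in 23 of 35 (65.7%) beside 47.3% and 58.3%. GGTCACACT was present in 5, namely GlnRS, ProRS-m and the unbound AsnRS-m, AspRS-m and beta-PheRS, or 14.3% beside 6.04% and 10.4%. GGTATTTT was present in SerRS-m alone (2.86% beside 5.26% and 7.88%), and TATAAA in 19 of 35 (54.3% beside 45.8% and 44.6%). Motif 1 was thus in 3 of the 4 unbound promoters and in 2 of the 31 bound ones (6.45%, beside 10.4% of all bound promoters). Over all genes it went the other way, being commoner in promoters of bound genes (10.4%) than in all promoters (6.04%), so these 4 promoters do not show a general pattern. These are matches of letters, not measured sites.

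Summits sat close to the synthetase starts. In 29 of 31 bound members the summit was upstream of the gene's nearest annotated start (93.5%, beside 87.2% of all bound genes). In 17 it lay within 50 bp of that start (54.8%, beside 34.8%). The exceptions to the upstream position were ArgRS-m and GluRS-m. At AspRS, ValRS and ValRS-m the nearest start was not the first one, and the summit lay downstream of the first start. Median distance was 42 bp upstream, against 72 bp for all bound genes.

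Many of these summits also lay near the start of another gene, so the peak cannot be assigned to the synthetase alone. Another protein-coding gene had a start within 500 bp of the summit in 22 of 31 members (71.0%), beside 58.2% of all bound genes. In 21 the other gene was on the opposite strand (67.7%, beside 55.6%), and in 18 the summit lay between the divergent starts. The arrangement was found at 16 of 19 bound cytosolic genes (84.2%) and 6 of 12 bound mitochondrial genes (50%), and the difference was not tested. The synthetase start was the nearer one in 10 and the other gene's start in 11, with a tie at HisRS, which shares its annotated start and strand with Bx, a LIM-domain gene.

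The shared promoters covered the strongest peaks. LeuRS-m and Dhc64C, the cytoplasmic dynein heavy chain, started 166 bp apart with the summit 64 bp from LeuRS-m. AlaRS-m and Fitm, a fat storage-inducing transmembrane gene, started 35 bp apart. The summit between TrpRS and Vps16A, a subunit of the vesicle-tethering complexes HOPS and CORVET, was 40 bp from the Vps16A start and 75 bp from the TrpRS start, so the peak counts for both genes. TyrRS and CG33158 started 295 bp apart with the summit 110 bp from TyrRS. SerRS and CG17260 started 8 bp apart, LysRS and Hecw 62 bp apart, and TyrRS-m and CG3589 55 bp apart. At ThrRS the summit was 90 bp from Patsas and 376 bp from ThrRS, and at AspRS the start of Nmda1 was nearer, at 170 bp against 224 bp. The summit was also nearer the other gene at ArgRS (CG8578, 154 bp), CysRS-m (O-fut1, 34 bp), LeuRS (CG17593, 97 bp), MetRS (CG15084, 54 bp) and alpha-PheRS (CG2129). At ProRS-m it was 92 bp from the shared start of CG42304 and Snup, and at GlyRS 179 bp from Plp and 184 bp from sstn. The synthetase start was nearer at ArgRS-m (CG17816 at 314 bp), AsnRS (DCTN6-p27 at 324 bp), GlnRS (RIOK2 at 79 bp), GluProRS (AP-1sigma at 226 bp) and IleRS (Hem at 415 bp). Strong peaks with no other start within 500 bp were those of CysRS, IleRS-m, MetRS-m and TrpRS-m. The other bound members without one were AlaRS, GluRS-m, PheRS-m, ValRS and ValRS-m.

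**Figure D5:**
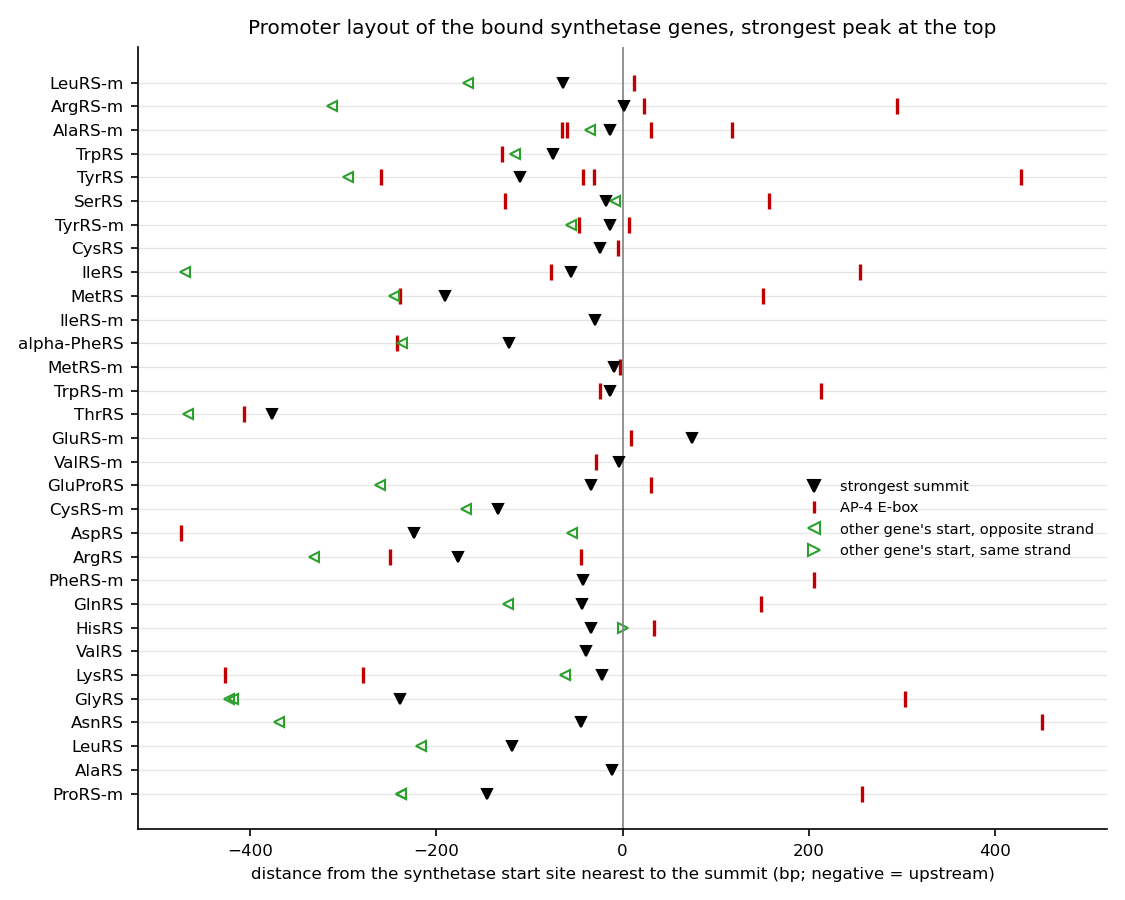
Position of the strongest summit, of AP-4 E-boxes and of other genes' starts around the synthetase start nearest to the summit (bp, negative is upstream), for the 31 bound genes from the strongest IDR signal at the top to the weakest. The summit is upstream of the start in 29 of 31, and an E-box lies within 100 bp of it in 17.

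Other genes of tRNA charging and its use were taken from a list of 19 symbols, which included alternative spellings of some genes. Of these symbols 14 matched the annotation and 10 were bound, beside 33.3% of all protein-coding genes. GatA, GatB and GatC encode the amidotransferase that makes mitochondrial glutaminyl-tRNA, for which no separate synthetase gene with the ending -m exists among the members. GatB stood at 10.9 ± 2.49, GatA at 2.65 ± 0.362, and GatC at 0.692 and 0.699 in replicates 2 and 3 with no matched peak in replicate 1. CG1750, listed for formylation and not part of that amidotransferase, had 12.01 ± 1.89. Slimp, a mitochondrial relative of SerRS-m that does not charge tRNA, had 9.94 ± 2.79, beside the unbound SerRS-m. The mitochondrial elongation factor gene mEFTu2 had 4.52 ± 1.31, and mEFTu1 had no IDR summit. Scaffold genes of the cytosolic multi-synthetase complex were low, with AIMP1 at 0.458 ± 0.0784, AIMP3 at 0.501 ± 0.249 and AIMP2 unbound. The elongation factor gene eEF1alpha1, whose product carries charged tRNA to the ribosome, stood at 0.568 ± 0.580, and eEF1alpha2 was unbound. Gcn2, the kinase that senses uncharged tRNA, had 0.467 ± 0.335, and crc, the fly ATF4, was unbound.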

How the data were processed

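Chromatin immunoprecipitation was followed by sequencing in 3 biological replicates, per the labels. The authors deposited relaxed peak lists per replicate and pooled, and 1 IDR list. The sources used here give no aligner, peak caller, settings or IDR threshold. Each peak has a deposited signal value from the authors' caller, which moves with depth, a deposited −log10 q-value, not used here, and a deposited summit offset. The lists on dm3 were not used here. From the dm6 lists, summits were set against the start sites of Ensembl release 115 (19275 distinct starts). IDR summits were matched to the strongest replicate summit within 100 bp. Genes were named by a fixed rule: every member once, with full values for the 6 strongest of each compartment, unbound members and members sharing a summit with another start. The members and lists were chosen with earlier results of these data known, and alternatives for the class counts after the data were seen. p-values over the 3 replicates measure only the spread between them. Of the columns with values of a sample, 0 were left out as belonging to other samples. Python 3.11.15, numpy 2.4.6, scipy 1.17.1 and matplotlib 3.10.9 were used. The scripts were checked on simulated data.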

Additional observations from a re-analysis of the deposited data

How the results depend on the processing

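The cytosolic and mitochondrial counts stayed within 1.5 times of 19 and 12 under every alternative run. They were 13 and 10 with a summit given only to the nearest start, beside 25.2% of all genes. With RefSeq gene models they were 19 and 12, beside 33.3% of all genes. With first starts only, AspRS was lost, leaving 18 cytosolic and 11 class II genes, beside 31% of all genes. With a replicate left out, the IDR list was replaced by peaks of 1 remaining strongest list that had a summit of the other within 100 bp. These lists held 3377 to 3938 peaks, beside 5460 in the IDR list, so list type and length changed too. Cytosolic and mitochondrial counts were then 15 to 17 and 11, class I 16 to 18 and class II 9, and all genes 24.9% to 25.8%. With the strongest 2730 IDR peaks, class II fell to 7 bound genes and all genes to 21.1%. Class alternatives were chosen after seeing the data. Cytosolic genes with an E-box numbered 2 within 25 bp and 9 within 100 bp, and mitochondrial genes 4 and 8. Of all bound genes 42.7% had an E-box within 100 bp, and the share within 25 bp was not computed. Without any 1 replicate, cytosolic and mitochondrial genes with an E-box within 50 bp numbered 3 and 6 to 7. The cytosolic minus mitochondrial share was -3.33 points with the full relaxed lists and 0.833 to 7.5 points without any 1 replicate. Without GlyRS, HisRS, LysRS and ThrRS it was 1.11 points. Without members that share the summit it was -19.4 points, and that filter took out bound genes only. The cause of these shifts was not tested. The log2 ratio of medians ran from -1.56 to -0.51 without any 1 replicate and was -0.629 without GlyRS, HisRS, LysRS and ThrRS. Without members that share the summit it gave no value. In replicates 1 and 2 the cytosolic median then fell on a gene with no peak in the strongest list. With the full relaxed lists the log2 ratio was -2.26 without those members, 0.81 in class I alone and 0.86 in class II alone, all chosen after seeing the data. Of 155 values of single genes, 1 moved by over 1 SD (AspRS, 2.79 with 50 bp matching). No paired analysis was possible because there is 1 group and so no samples to pair between groups. Contrasts between gene sets were taken within each replicate. Depth is unknown, so an absent peak may be a weak one.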
